A study of Mus musculus with 2 samples.

Results

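A set of 8 transcription factor genes that pattern the forebrain and the eye, the regions next to the midbrain, was described in midbrain tissue. They are the homeobox genes Rax, Vax1, Vax2, Hesx1, Emx1 and Emx2 and the zinc finger genes Fezf1 and Fezf2. The 8 genes are a list of names grouped by this known role, with no threshold on their values, but the list was drawn up with earlier results of these data known. All 8 were found among the 43346 mouse genes of the tables. RNA came from midbrains of B6NCrl mouse embryos at embryonic day 10.5, with both sexes pooled and a health state given as healthy. The labels give 1 group and 2 biological replicates: 69 embryos were pooled for replicate 1 and 51 for replicate 2. Genes took 45531621 estimated reads in replicate 1 and 50477634 in replicate 2, spike-in and tRNA rows left out.

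The forebrain arises from the front of the neural plate, where a set of homeobox genes holds back the programmes of more caudal brain. Within it a single eye field, marked by Rax and Six3, splits into the 2 optic vesicles, and Vax1 and Vax2 set apart the optic stalk and the ventral retina. Hesx1 is a repressor of the anterior neural plate and of the pituitary primordium, Emx1 and Emx2 pattern the dorsal telencephalon, and Fezf1 and Fezf2 are repressors of the early forebrain that help divide the diencephalon.

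These genes include 3 pairs of paralogues, so the first question was whether a read could be assigned to the wrong one. The transcripts were compared base by base, and the longest exact stretch shared by the Emx pair and by the Fezf pair is in capitals in the lines below, with up to 30 coding bases on either side (GENCODE M21, GRCm38). The Emx stretch encodes part of the homeodomain. The Fezf stretch encodes the link between zinc fingers.
Emx1 (chr6:85194133-85194206, plus strand): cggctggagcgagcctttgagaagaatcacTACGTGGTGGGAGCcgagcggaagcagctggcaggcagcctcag
Emx2 (chr19:59461757-59461830, plus strand): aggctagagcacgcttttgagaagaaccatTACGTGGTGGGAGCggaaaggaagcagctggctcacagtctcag
Fezf1 (chr6:23245933-23246015, minus strand): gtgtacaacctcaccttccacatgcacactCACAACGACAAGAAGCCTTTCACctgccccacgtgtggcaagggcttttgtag
Fezf2 (chr14:12342596-12342678, minus strand): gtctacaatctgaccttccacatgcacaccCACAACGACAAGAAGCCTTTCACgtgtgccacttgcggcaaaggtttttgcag
The longest shared run was 14 bases for Emx1 and Emx2, 23 for Vax1 and Vax2, and 23 for Fezf1 and Fezf2. No pair shared a run of 30 bases, and none shared one of 100 bases. The effective lengths in the tables are the transcript lengths less 99 bases, and an exact read of 100 bases could not match both compared transcripts of a pair. The comparison covered 1 coding transcript of each gene.

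Of the 8 genes 5 were detected, meaning at least 1 TPM in both libraries. TPM is an estimated share of transcripts, corrected for transcript length, so that levels of different genes can be set side by side. Over all protein-coding genes, 58.1% (12477 of 21474) met the same condition. The detected members were Emx2, Fezf2, Fezf1, Rax and Emx1. Vax2 passed 1 TPM in replicate 2 only, and Hesx1 and Vax1 stayed under it in both. In bulk tissue, fewer cells that express a gene and less RNA per cell cannot be told apart.

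Rax, the eye field gene, stood at 2.99 TPM in replicate 1 and 5.73 TPM in replicate 2 (4.36 TPM ± 1.94, SD, n = 2), from 137.89 and 302.25 estimated reads. The deposited credible intervals, 2.47 to 3.45 TPM and 5.01 to 6.29 TPM, did not overlap, so the libraries lay further apart than the estimation error of either. The mean placed Rax above 51.4% of protein-coding genes. Rax lies on the minus strand of chromosome 18, 65928277 to 65939787 (GRCm38), and the annotation puts the antisense gene Raxos1 across 1604 of its exonic bases. Raxos1 was near zero, at 0.06 and 0.09 TPM. The reads of the pair sum to whole numbers, 142.00 and 310.00, so at least 1 read in each library was divided between them by the estimate. How many reads were divided cannot be read from these sums, so the split between Rax and Raxos1 rests on the estimate. The 1604 bases are taken over all 7 Rax transcripts of GENCODE M21. The tables hold 1 of these, whose overlap may be smaller.

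The ventral optic genes were low. Vax2, which marks the ventral retina, was at 0.51 TPM in replicate 1 (17 reads) and 1.64 TPM in replicate 2 (63 reads). Its credible intervals were 0.297 to 0.776 TPM and 1.25 to 2.05 TPM and did not overlap. Vax1, a gene of the optic stalk and ventral forebrain, had 1 read in replicate 1 and 3 reads in replicate 2, or 0.04 and 0.09 TPM. At 3 reads or fewer the level cannot be told from the detection floor, and the intervals of the libraries, 0.013 to 0.74 TPM and 0.0432 to 0.731 TPM, overlapped. In TPM, Vax2 exceeded Vax1 12.75 times in replicate 1 and 18.22 times in replicate 2, with overlapping credible intervals in replicate 1. This ratio rests on the few Vax1 reads. With the posterior mean TPM, which does not go to 0 for a gene with no reads, it was 1.83 and 5.12. Of the Vax1 posterior mean, 75.8% and 61.0% lay on Vax1-202, a noncoding model of 250 bases without reads. The bounds of that model reached 0.661 and 0.587 TPM. All Vax1 reads lay on Vax1-201, whose interval in replicate 1, 0.00132 to 0.169 TPM, was below that of Vax2. Vax1 lies on chromosome 19, 59166187 to 59170056, and Vax2 on chromosome 6, 83711264 to 83738313.

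Hesx1 was at 0.33 TPM (10 reads) in replicate 1 and at 0.86 TPM (30 reads) in replicate 2. Its credible intervals, 0.157 to 0.562 TPM and 0.58 to 1.18 TPM, narrowly failed to overlap. The gene lies on chromosome 14, 26994416 to 27002329.

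Emx2 had the highest mean of the 8 genes and the closest agreement between the libraries, at 7.83 TPM in replicate 1 and 7.43 TPM in replicate 2 (7.63 TPM ± 0.283, SD, n = 2). Its credible intervals overlapped, 7.07 to 8.94 TPM against 6.73 to 8.46 TPM. Its paralogue Emx1 was lower in both libraries, at 1.83 and 3.01 TPM (2.42 TPM ± 0.834, SD, n = 2). Emx2 exceeded Emx1 4.28 times in replicate 1 and 2.47 times in replicate 2, with no overlap of their credible intervals in either. Emx2 lies on chromosome 19, 59458372 to 59465357, and Emx1 on chromosome 6, 85187438 to 85204462.

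The 2 zinc finger genes stood at like levels in replicate 1 and apart in replicate 2. Fezf1, also known for its role in olfactory development, was at 3.87 and 5.66 TPM (4.77 TPM ± 1.27, SD, n = 2). Fezf2, known in later cortex as a determinant of corticospinal neurons, was at 3.92 and 7.78 TPM (5.85 TPM ± 2.73, SD, n = 2). Fezf2 over Fezf1 was 1.01 in replicate 1, where the credible intervals overlapped, and 1.37 in replicate 2, where they did not. For both genes replicate 2 was the higher, with no overlap between the libraries. Fezf1 lies on chromosome 6, 23245044 to 23248362, and Fezf2 on chromosome 14, 12342094 to 12348189.

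By mean TPM the order was Emx2, Fezf2, Fezf1, Rax, Emx1, Vax2, Hesx1 and Vax1. The top of this order was not settled by the spread. Emx2 was 2.00 times Fezf2 in replicate 1 and 0.96 times it in replicate 2, and Fezf1 was 1.29 and 0.99 times Rax. In replicate 2 the order opened with Fezf2, Emx2, Rax and Fezf1. The last 4 places were the same in both libraries. Between neighbours, Emx1 and Vax2 did not overlap in library values or in credible intervals. Library values of Hesx1 and Vax1 did not overlap, but their credible intervals did.

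**Figure D1:**
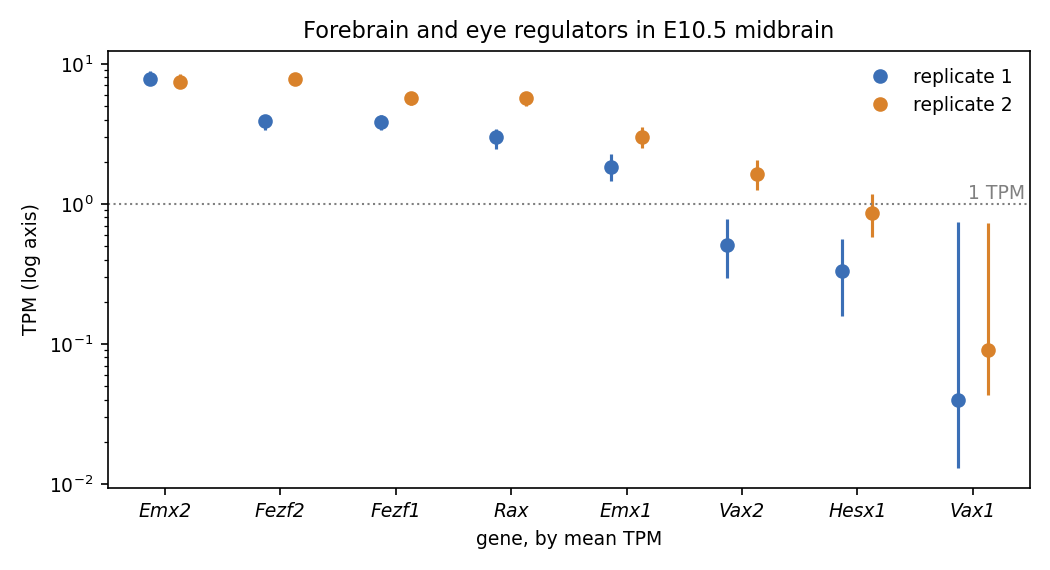
Level of each regulator in TPM (log axis), with 1 point per library and gene and the deposited credible interval as a vertical line; the dotted line is at 1 TPM. Replicate 2 lies above replicate 1 for every gene but Emx2, and the 2 intervals of a gene overlap for Emx2 and Vax1.

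How far the libraries differed was measured on estimated reads, rounded and scaled by TMM factors, with 0.5 added to each. The ratio of replicate 2 to replicate 1 carries an exact 95% interval that covers counting error only. Each side of the ratio is a single library, which leaves no degrees of freedom for a test, so no p-value is given and a difference is called when it passes 2-fold. The 6 members whose mean reached 1 TPM were read against the 14768 genes that met the same minimum.

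Replicate 2 was the higher for 7 of the 8 genes, and for 5 of the 6 with a mean of at least 1 TPM. Among all 14768 genes 51.0% were higher in replicate 2. The counting interval lay above equal levels for the same 5 members, against 28.9% of all genes, or 13.8% of the 5882 genes with a mean of 1 to 10 TPM. The median log2 ratio was 0.894 over the 6 members and 0.00603 over all genes at the minimum. Vax2, at 0.51 and 1.64 TPM, is among the 6 only through replicate 2, the library where it was high. Its part in these counts and in this median is therefore no support for a difference. Of the others, Fezf2, Fezf1, Rax and Emx1 were higher in replicate 2, and Emx2 was not.

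Past 2-fold with replicate 2 higher were 3 of the 6 members, Vax2, Fezf2 and Rax, beside 1.18% of all genes and 2.81% of those with a mean of 1 to 10 TPM. Vax2 reached the minimum mean only through replicate 2, the library where it was high, so its place in this count is no support for a difference. Among the 5 members at 1 TPM or more in both libraries, 2 were past 2-fold, Fezf2 and Rax, beside 0.472% of the 14206 genes that met that condition. That share covers genes of all levels. Under this condition no share was taken for means of 1 to 10 TPM, the range of these members. No member passed 2-fold with replicate 1 higher, against 2.04% of all genes and 4.51% of those with a mean of 1 to 10 TPM. In either direction 3.22% of all genes were past 2-fold. Vax2 differed most, 3.35-fold (counting interval 1.98 to 6.24). Fezf2 differed 2.09-fold (1.81 to 2.44) and Rax 2.02-fold (1.65 to 2.49), so both sat at the threshold. The intervals of all 3 reached below 2-fold. On TPM with 0.1 added and no further scaling, Vax2 alone of the 6 passed, against 0.975% of all genes. On that scale the log2 ratio was 0.92 for Rax and 0.97 for Fezf2, and the median over all genes was -0.070.

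Emx1 was 1.71-fold higher in replicate 2 (1.29 to 2.30) and Fezf1 1.55-fold higher (1.32 to 1.82). For Emx2 the ratio was 0.96 (0.84 to 1.09), an interval that includes equal levels and excludes the ratio of each other member with a mean of at least 1 TPM. Of the members under that minimum, Hesx1 had a ratio of 2.69 (1.32 to 6.36). The ratio of Vax1, from 1 and 3 reads, was 2.16 with an interval from 0.22 to 145.58, which sets no direction. Summed over the 8 genes replicate 1 came to 21.3 TPM and replicate 2 to 32.2 TPM, or 13.5 and 24.8 TPM with Emx2 left out.

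**Figure D2:**
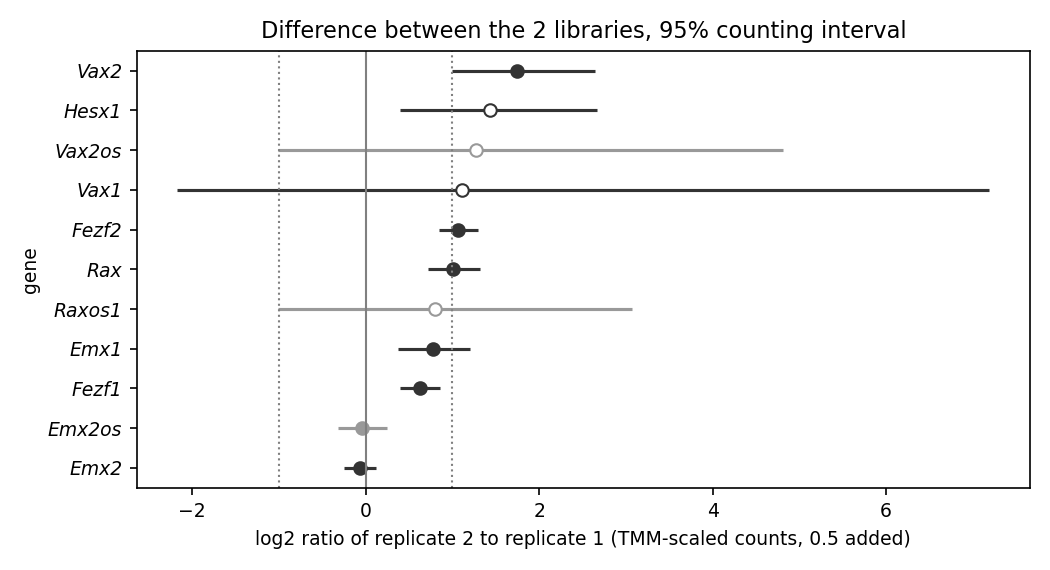
The log2 ratio of replicate 2 to replicate 1 for each regulator (black) and for 3 antisense neighbours (grey), with the 95% counting interval as a line; open points have a mean under 1 TPM, and the dotted lines mark 2-fold. Emx2 and Emx2os lie close to equal levels, at -0.06 and -0.04, while the other regulators lie to the right.

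Emx2 has a head-to-head neighbour, Emx2os, an antisense RNA that starts within its first exon and runs the other way. The annotation gives 264 exonic bases to both. Emx2os was at 1.38 TPM in replicate 1 and 1.27 TPM in replicate 2, with credible intervals of 1.17 to 1.55 and 1.09 to 1.43 TPM that overlapped. Emx2 exceeded it 5.67 and 5.85 times. In replicate 2 the reads of the 2 genes, 475.59 and 210.41, sum to a whole number, 686.00, so some were divided between them. With the reads of both added, the log2 ratio between the libraries was -0.06, as for Emx2 alone. Vax2 and its antisense neighbour Vax2os share no annotated exonic base, and Vax2os was at 0.09 and 0.16 TPM. The sources used here do not state whether reads were counted by strand, so reads in the shared bases cannot be assigned with certainty.

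Emx2 was also the member with the most divided transcript estimate. Of Emx2, 3 transcripts are in the tables. Emx2-201, with 3 exons and 759 coding bases, was estimated at 3.05 and 2.36 TPM. Emx2-202, a shorter model with 207 coding bases that starts inside exon 1 and skips exon 2, was estimated at 4.78 and 5.07 TPM. Emx2-202 thus took 61.1% of the gene in replicate 1 and 68.3% in replicate 2 (64.7% ± 5.09, SD, n = 2). The homeobox stretch of Emx2 printed above lies in exon 2, of 185 bases, and is absent from Emx2-202. Both transcripts contain nearly all of the last exon, where reads can only be divided by estimate. By reads rather than by length-corrected level, Emx2-201 had 252.14 and Emx2-202 207.86 in replicate 1, and 223.22 and 252.37 in replicate 2. Emx2-203 had no reads in either library.

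**Figure D3:**
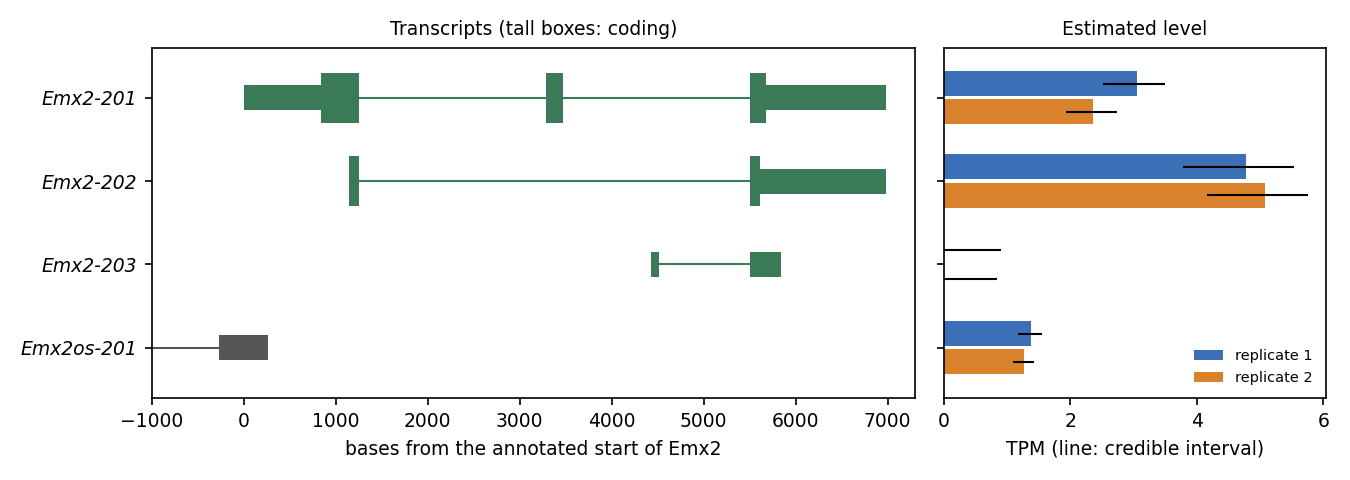
Left, the annotated Emx2 transcripts and the start of Emx2os drawn to scale in bases from the annotated start of Emx2, with exons as boxes and coding sequence as taller boxes. Right, the TPM estimate of each transcript by library, with the credible interval as a line: Emx2-202 lies above Emx2-201 in both libraries, with intervals of 3.78 to 5.54 and 2.52 to 3.49 TPM in replicate 1.

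Emx1 had 2 transcripts with reads. Emx1-201, the coding form, took 90.6% and 85.0% of its level, and the rest went to Emx1-202, which the annotation calls a retained intron. The estimate gave Emx1-202 0.17 TPM in replicate 1 and 0.45 TPM in replicate 2, with overlapping intervals of 0.0326 to 0.476 and 0.172 to 0.849 TPM. The other 6 members had reads on 1 transcript each. For Rax, Hesx1 and Fezf2 the later annotation lists more transcripts (7, 2 and 3) than the 1 in the tables, so any use of those could not be seen.

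Start regions were compared next, since CpG-rich and CpG-poor promoters are the main promoter classes in mammals. The RefSeq table (GRCm38.p6) holds a window of 250 bases before to 50 after the start for 6 members. Emx1 had 37 CpG pairs in its window, Emx2 26, Fezf2 20, Vax1 17, Fezf1 13 and Hesx1 4. All 300 bases of the Emx1 window and of the Emx2 window lie in annotated exons, so the highest counts come from exon sequence. The median over 32851 windows of all genes was 7. Thus 5 of the 6 lay above the median and Hesx1 below it, at a GC content of 33.7% against a median of 52.7%. Vax1, with the lowest RNA level, had more CpG pairs than Fezf1 and Hesx1. The lines below show the upstream bases that no annotated exon covers, for the 4 members where at least 150 such bases exist, with CpG pairs in capitals.
Hesx1 (chr14:27000112-27000361, plus strand): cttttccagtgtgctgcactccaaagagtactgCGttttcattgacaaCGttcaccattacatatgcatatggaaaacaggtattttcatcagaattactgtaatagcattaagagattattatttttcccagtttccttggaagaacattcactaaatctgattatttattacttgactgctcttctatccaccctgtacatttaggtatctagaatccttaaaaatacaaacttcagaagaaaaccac
Vax1 (chr19:59170398-59170647, minus strand): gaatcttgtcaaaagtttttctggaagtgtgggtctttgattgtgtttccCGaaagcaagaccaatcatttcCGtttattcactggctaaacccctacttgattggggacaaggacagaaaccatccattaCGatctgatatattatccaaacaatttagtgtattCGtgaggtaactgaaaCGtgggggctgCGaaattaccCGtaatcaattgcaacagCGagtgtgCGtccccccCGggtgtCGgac
Fezf1 (chr6:23248363-23248514, minus strand): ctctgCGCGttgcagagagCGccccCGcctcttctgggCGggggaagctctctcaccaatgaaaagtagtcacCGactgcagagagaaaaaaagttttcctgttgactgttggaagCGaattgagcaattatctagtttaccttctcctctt
Fezf2 (chr14:12345960-12346115, minus strand): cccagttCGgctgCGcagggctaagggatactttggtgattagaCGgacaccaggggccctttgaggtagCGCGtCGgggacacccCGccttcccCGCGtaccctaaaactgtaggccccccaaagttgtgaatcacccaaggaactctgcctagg
The RefSeq start sites of Emx1, Emx2, Fezf1, Fezf2 and Hesx1 lie inside the gene spans given above, downstream of the annotated start. The Hesx1 site is at 27000362 and the Fezf2 site at 12345865, so these windows need not hold the promoter at the annotated start. The Vax1 start site lies upstream of its gene span, and no annotated exon covers any base of its window. The sequences start 250 bases before the RefSeq start site. The Hesx1 and Vax1 lines run up to that site, with 2 and 11 CpG pairs. The Fezf1 line ends at position -99 and the Fezf2 line at -95, with 7 and 9 pairs. The homeodomain core TAATTA, searched on both strands of the 300-base windows (the word is its own reverse complement), occurred once, in the wholly exonic Emx2 window. It occurs in 5.29% of all windows. The bicoid-type word TAATCC, which Otx proteins bind, occurred in none of the 6, and occurs in 7.06% of all windows.

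Whether other genes of the same regions followed the members was described with lists chosen by known role. These lists are read against the same set of 14768 genes, and none of them holds any of the 8 members. The detection counts of these lists, and of the marker sets further below, stand beside 58.1% of all protein-coding genes. Of 17 eye field and optic vesicle genes, 11 were detected. Of the 13 with a mean of at least 1 TPM, 3 were past 2-fold with replicate 2 higher and none with replicate 1 higher. All genes gave 1.18% and 2.04% in these directions. The 3 were Six6, an eye field gene, at 0.56 and 1.55 TPM, and the retinoic acid synthesis genes Aldh1a1 at 1.24 and 5.59 TPM and Aldh1a3 at 0.80 and 7.83 TPM. Six6 and Aldh1a3 lay under 1 TPM in replicate 1 and reached the minimum only through replicate 2, so the count of 3 is a description only. Aldh1a1 was above 1 TPM in both. The list did not move as a whole: 7 of its 13 genes were higher in replicate 2, with a median log2 ratio of 0.0750. Six3, the usual partner of Rax in the eye field, went the other way at 6.70 and 3.41 TPM, and so did Lhx2 at 24.5 and 19.9 TPM.

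Telencephalon genes were detected for 17 of 22 list members, and none of the 17 with a mean of at least 1 TPM was past 2-fold, beside 58.1% of protein-coding genes detected and 3.22% of all genes past 2-fold in either direction. A list of 17 genes is too short to stand apart from that share. Of the list genes under that mean, Dmrt3, Lhx8, Eomes and Neurod6 were more than 2-fold higher in replicate 2, and Tbr1 was not. The reads were 22 and 115 for Dmrt3, 8 and 36 for Lhx8, 21 and 54 for Eomes, and 1 and 3 for Neurod6. Tbr1, a gene of early cortical neurons, was at 0.22 and 0.20 TPM (23 and 20 reads). It lay below Emx1, Emx2, Fezf1 and Fezf2 in both libraries. Of 22 diencephalon and hypothalamus genes 20 were detected. Of the 21 with a mean of at least 1 TPM, Six6 was past 2-fold with replicate 2 higher and Lhx1 with replicate 1 higher, at 16.7 and 4.72 TPM. Nkx2-1, a gene of the hypothalamus, was at 7.93 and 7.77 TPM.

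**Figure D4:**
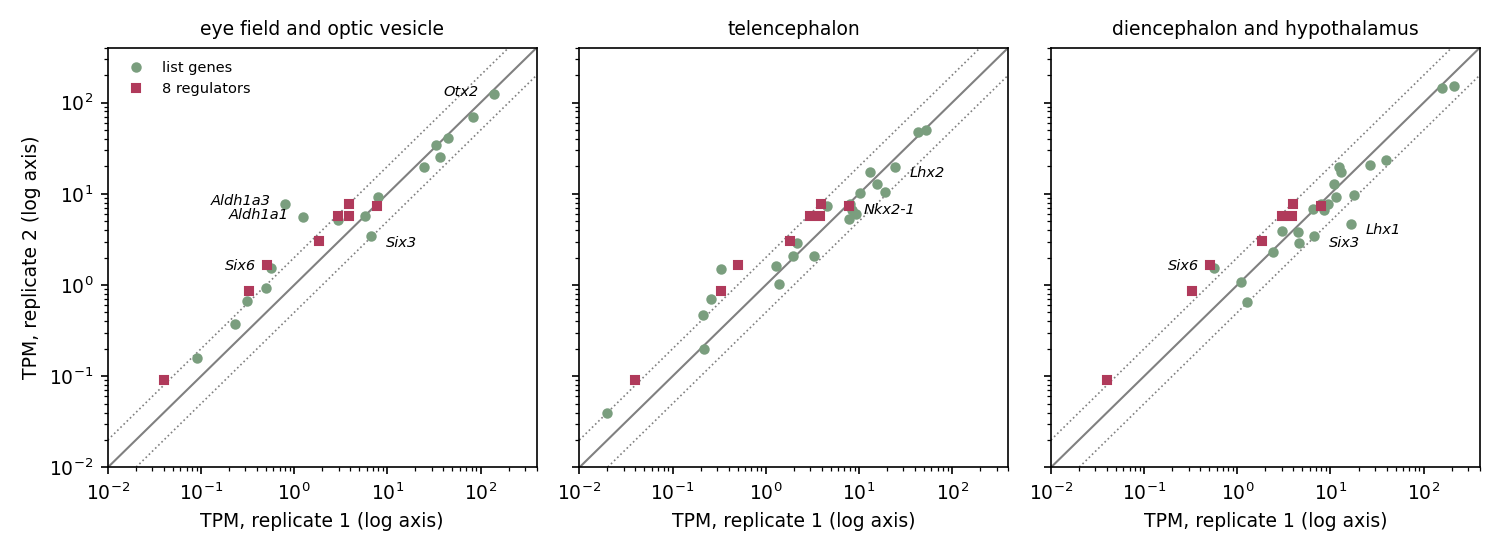
TPM in replicate 2 against TPM in replicate 1 (log axes) for the genes of 3 lists (circles) and, repeated in each panel, the 8 regulators (squares); the solid line is equality and the dotted lines are 2-fold. Aldh1a3 and Aldh1a1 lie furthest above the upper line, and Lhx1 lies below the lower one, at 16.7 and 4.72 TPM.

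Of 11 pituitary and oral ectoderm genes 5 were detected, of 9 olfactory placode genes 7, and of 20 signals and antagonists of the anterior neural ridge all 20. In none of these 3 lists was a gene with a mean of at least 1 TPM past 2-fold in either direction, where all genes gave 3.22%. Of 12 pigment epithelium, lens and cornea genes 6 were detected. Of the 6 with a mean of at least 1 TPM, Foxe3 was past 2-fold with replicate 2 higher, but 2 of the 6 in all were higher in replicate 2, with a median log2 ratio of -0.194. Prox1, a homeobox gene of the lens, was at 8.63 and 5.46 TPM, and Cryab, a crystallin gene, at 3.67 and 2.17 TPM.

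Hesx1, Rax and Fezf1 are also genes of tissues that touch the forebrain, so defining markers of those tissues were read beside them. Of 5 pituitary markers, 1 was detected, Pou1f1 had no reads in either library, and 4 of the 5 were higher in replicate 2. Summed, the 5 came to 6.95 and 7.83 TPM, most of it from Pomc at 6.42 and 6.79 TPM, a gene that early hypothalamic neurons use too. The optic vesicle and retina markers Six6 and Aldh1a3 summed to 1.36 and 9.38 TPM, both higher in replicate 2. The 5 pigment epithelium markers summed to 5.94 and 8.93 TPM, with 4 of the 5 higher in replicate 2 and none past 2-fold among the 2 with a mean of at least 1 TPM. Of these 2, Pmel was at 3.27 and 5.70 TPM, and Dct, lower in replicate 2, at 1.72 and 1.38 TPM. The 3 lens markers summed to 5.66 and 12.5 TPM, nearly all of it Foxe3, a forkhead gene of the lens placode, at 5.63 and 12.5 TPM. The lens crystallin genes Cryaa and Crybb2 had 1 read and none in all, and Prox1 and Cryab, which are not among the 3 markers, were lower in replicate 2.

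The 3 olfactory placode markers went the other way, summing to 15.3 TPM in replicate 1 and 11.3 TPM in replicate 2, while Fezf1 was higher in replicate 2. The 2 telencephalon markers, both under 1 TPM in both libraries, summed to 0.43 and 0.67 TPM, and hypothalamus markers to 13.8 and 11.3 TPM. Of 6 midbrain markers 5 were detected, with sums of 197 and 182 TPM, mostly from Otx2 at 138 and 123 TPM, and none was past 2-fold. Otx2 is also on the eye field and anterior neural ridge lists, so this sum does not set midbrain apart from those regions. En2, the marker not detected, was at 0.92 and 0.71 TPM. En1, a midbrain gene, was at 4.74 and 4.46 TPM. The 3 hindbrain markers summed to 3.35 and 5.79 TPM, all 3 higher in replicate 2. The summed levels of the optic, pigment epithelium, lens and hindbrain markers were thus higher in replicate 2, as Rax and Vax2 were. So were those of the pituitary and telencephalon markers, while those of the olfactory placode, hypothalamus and midbrain markers were lower. A single gene made up most of the optic sum in replicate 2, Aldh1a3, and of the lens sum, Foxe3. The part of any of these tissues in the difference between the libraries was not tested.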

How the data were processed

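RNA of embryonic day 10.5 midbrain was read from 2 libraries of 1 group, each made from 10 ng of RNA per the labels. Per the file headers, the tables are on mm10 with GENCODE M4, from transcriptome alignments; the aligner, the quantifier and any use of strand were not given in the sources used here. Expected counts, as deposited, divide ambiguous reads among genes and transcripts. The deposited TPM divides counts by effective length, scaled to a fixed total, while deposited FPKM served as a check. Credible bounds were deposited too, a signal on the TPM scale, with no stated level. The isoform percent, also deposited, gives the part of a gene's TPM on each transcript.

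GENCODE M21 (GRCm38) gave symbols and positions, matched on Ensembl identifiers without version (42462 of 43346). Gene models may differ from M4. The 97 spike-in and 26248 tRNA rows stayed out. Counts were rounded and scaled by TMM (edgeR 4.0.16; factors 1.012 and 0.988), with DESeq2 1.42.0 size factors as an alternative. Ratios had 0.5 added, with exact Clopper-Pearson intervals. PCR copies are not independent molecules, so these cover counting error only. Nothing says that reads were counted once per molecule. The ratio and its interval were tested on simulated counts with counting error only. That check holds no spread between pools or from PCR copies, so it cannot show how the interval does under such spread. The members and gene lists were chosen with earlier results of these data known.

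All 8 members are named. Of other lists, named genes were at most the 4 highest and 2 lowest, those past 2-fold, overlapping antisense genes and regional markers. With 2 libraries, no gene can be named for a like pattern across samples. Scripts ran in R 4.3.3 and Python 3.11.15 (scipy 1.17.1, pandas 2.3.3). Some genes and a sequence are not reported here, and the lists and marker sums leave those genes out.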

Additional observations from a re-analysis of the deposited data

How the results depend on the processing

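No paired analysis was possible because the labels give 1 group. The count of members past 2-fold with replicate 2 higher, 3 of 6, was 3 with DESeq2 size factors, 1 on TPM with 0.1 added and 0 with 1 added, and 5 at 1.5-fold. Of alternatives chosen after seeing the data, it was 5 of 8 with no filter on low values and 2 of 5 at 1 TPM or more in both libraries. The direction of the 8 members was the same under all 3 other scalings. Over all genes, 174 were past 2-fold with replicate 2 higher and 302 with replicate 1 higher. Without a filter these were 2429 and 2753, at a mean of at least 5 TPM 26 and 87, and at 1.5-fold 457 and 966. The number of members detected was 5, and 4 to 6 under the other minimums, FPKM and each library alone. The mean ratio of Vax2 to Vax1, 15.49, was 3.48 with posterior mean TPM, most of which lay for Vax1 on a transcript without reads. Leaving out a replicate gave 12.75 to 18.22 for it, 2.47 to 4.28 for Emx2 over Emx1 and 1.01 to 1.37 for Fezf2 over Fezf1. Depth limits Vax1 and Hesx1, with at most 30 reads in a library.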
